A study of Mus musculus with 338 samples.

Results

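The interferon response and MHC class I antigen presentation were followed through 42 genes picked by symbol in a deposited table of 21382 genes from mouse pancreatic islets, and all 42 were in the table. Of these, 33 belong to the interferon response and 9 to MHC class I presentation. Cells that sense viral nucleic acid secrete interferons, which act through the JAK kinases and the STAT and IRF transcription factors to switch on antiviral genes in the same and in neighbouring cells. MHC class I molecules carry peptides cut by the proteasome to the cell surface, where cytotoxic T cells read them, and interferons raise the genes of this route too. Islet cells respond to interferons in this way, and raised MHC class I in islets is a known feature of autoimmune diabetes.

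RNA was sequenced from islets of single mice, with at least 150 islets taken from each. Mice of 6 strains (129S2/SvPas, AKR/J, A/J, C57Bl/6J, BALB/cJ and DBA/2J) were fed a high fat, high sugar diet (HFHS, 172 mice) or regular chow (RC, 166 mice), and islets were taken at day 2, 10, 30 or 90. This gave 48 groups of 4 to 11 mice. The labels name no further treatment and give no age. Bulk RNA cannot tell fewer cells of a type apart from less RNA per cell, and p-values measure the spread between mice of a group.

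Levels are given as CPM, a gene's count scaled by the library's total so that all libraries share 1 total. Reads counted on genes ranged from 9526926 to 50751894 per library, with a median of 25989180. A count of 0 allows up to 3 counts, which is 0.315 CPM in the shallowest library and 0.0591 CPM in the deepest, for counting error only. Ins1 and Ins2, the insulin genes that define islet beta cells, took 0.24 to 43.6% of the reads, with a median of 21.7%. In 34 libraries the level of a gene depended on its GC content by more than 0.5 on the log2 scale per 10 GC points, and 9 of these were closer to another strain than to their own label. Results are therefore also given with a GC curve of each library taken as an offset, and over the 304 libraries within that bound.

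Many interferon genes are switched on through a short repeat bound by STAT and IRF proteins, the interferon-stimulated response element. Promoters, from 250 bases before to 50 bases after the start of the gene, were found for 33 of the 42 genes in RefSeq on GRCm38.p6. The form GAAANNGAAAC, sought on both strands with overlapping matches allowed, stood in 12 of the 33 (36.4%), against 0.944% of all 27025 promoters. With the longer form GGAAANNGAAAC it was 10 genes (30.3%) against 0.311%, and with the shorter form GAAANNGAAA it was 14 genes (42.4%) against 3.99%. The 14 are Ifit1, Ifit3, Isg15, Oas1a, Bst2, Rsad2, Eif2ak2, Stat2, Ifih1, Ddx58, Gbp2, Gbp3, Cxcl10 and B2m, so that B2m was the sole MHC class I gene among them. A match describes letters and does not show that a factor binds, and a gene without a match may carry its element outside this window.

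The promoters below are those of 5 of the 14 genes with a match, an antiviral modifier, an RNA-binding effector, a synthetase, a chemokine and the MHC class I light chain. Capitals mark each match of GAAANNGAAA or its reverse complement, with the base that completes the form GAAANNGAAAC where it is there. Isg15 lies at chr4:156200769-156201068 on the minus strand, Ifit3 at chr19:34583279-34583578 on the plus strand, Oas1a at chr5:120907476-120907775 on the minus strand, Cxcl10 at chr5:92348840-92349139 on the minus strand and B2m at chr2:122147437-122147736 on the plus strand.
Isg15: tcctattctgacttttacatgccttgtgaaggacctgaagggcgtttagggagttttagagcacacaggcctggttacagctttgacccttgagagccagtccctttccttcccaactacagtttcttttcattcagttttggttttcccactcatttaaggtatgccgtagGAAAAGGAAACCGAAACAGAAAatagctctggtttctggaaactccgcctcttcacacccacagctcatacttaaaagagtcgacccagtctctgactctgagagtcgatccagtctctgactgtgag
Ifit3: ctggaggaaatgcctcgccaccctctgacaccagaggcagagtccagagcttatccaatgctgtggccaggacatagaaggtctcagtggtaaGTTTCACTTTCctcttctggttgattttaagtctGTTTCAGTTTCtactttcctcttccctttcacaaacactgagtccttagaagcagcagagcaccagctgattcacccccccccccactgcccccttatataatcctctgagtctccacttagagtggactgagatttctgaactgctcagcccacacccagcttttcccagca
Oas1a: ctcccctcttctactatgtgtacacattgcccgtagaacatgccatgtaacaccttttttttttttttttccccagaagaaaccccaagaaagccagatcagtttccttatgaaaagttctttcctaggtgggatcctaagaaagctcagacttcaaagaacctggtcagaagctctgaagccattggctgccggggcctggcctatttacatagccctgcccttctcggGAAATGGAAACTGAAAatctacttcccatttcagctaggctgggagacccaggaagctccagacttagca
Cxcl10: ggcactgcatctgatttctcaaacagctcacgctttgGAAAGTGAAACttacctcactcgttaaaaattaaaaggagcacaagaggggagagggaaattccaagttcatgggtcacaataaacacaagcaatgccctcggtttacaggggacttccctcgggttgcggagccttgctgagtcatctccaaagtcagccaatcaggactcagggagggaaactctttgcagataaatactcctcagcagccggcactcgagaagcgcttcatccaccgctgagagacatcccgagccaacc
B2m: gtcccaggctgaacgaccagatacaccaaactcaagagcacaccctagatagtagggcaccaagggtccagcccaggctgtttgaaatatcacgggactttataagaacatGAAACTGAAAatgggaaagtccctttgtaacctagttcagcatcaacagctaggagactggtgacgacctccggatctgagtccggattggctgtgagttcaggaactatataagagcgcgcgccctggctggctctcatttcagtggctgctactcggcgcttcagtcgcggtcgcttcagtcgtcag
In Isg15, 3 overlapping matches formed a single run that began at position -78 from the start. Ifit3 carried 2 matches on the opposite strand, Oas1a 2 overlapping ones close to its start, and Cxcl10 and B2m 1 each.

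Single mice stood apart in these genes. For each library the log2 CPM difference from the median of its own strain, diet and day group was averaged over the 33 interferon genes, and 6 of all libraries reached a mean of 1 or more. The highest was mouse 2RC119, a DBA/2J mouse on RC at day 90, with a mean of 2.65 over the interferon genes and 1.68 over the MHC class I genes. The others were AKR/J mice 5HF18 (HFHS, day 10; 1.27), 5HF16 (HFHS, day 10; 1.11), 5RC18 (RC, day 10; 1.08) and 5HF41 (HFHS, day 90; 1.03) and A/J mouse 4HF3 (HFHS, day 2; 1.04). The next library, C57Bl/6J mouse 1HF151, had 0.87. With scaling by the trimmed mean of M values (TMM), or with GC curves removed, the mean reached 1 in 2 libraries, 2RC119 and 5HF18, so the choice of the other 4 depends on the scale.

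**Figure D1:**
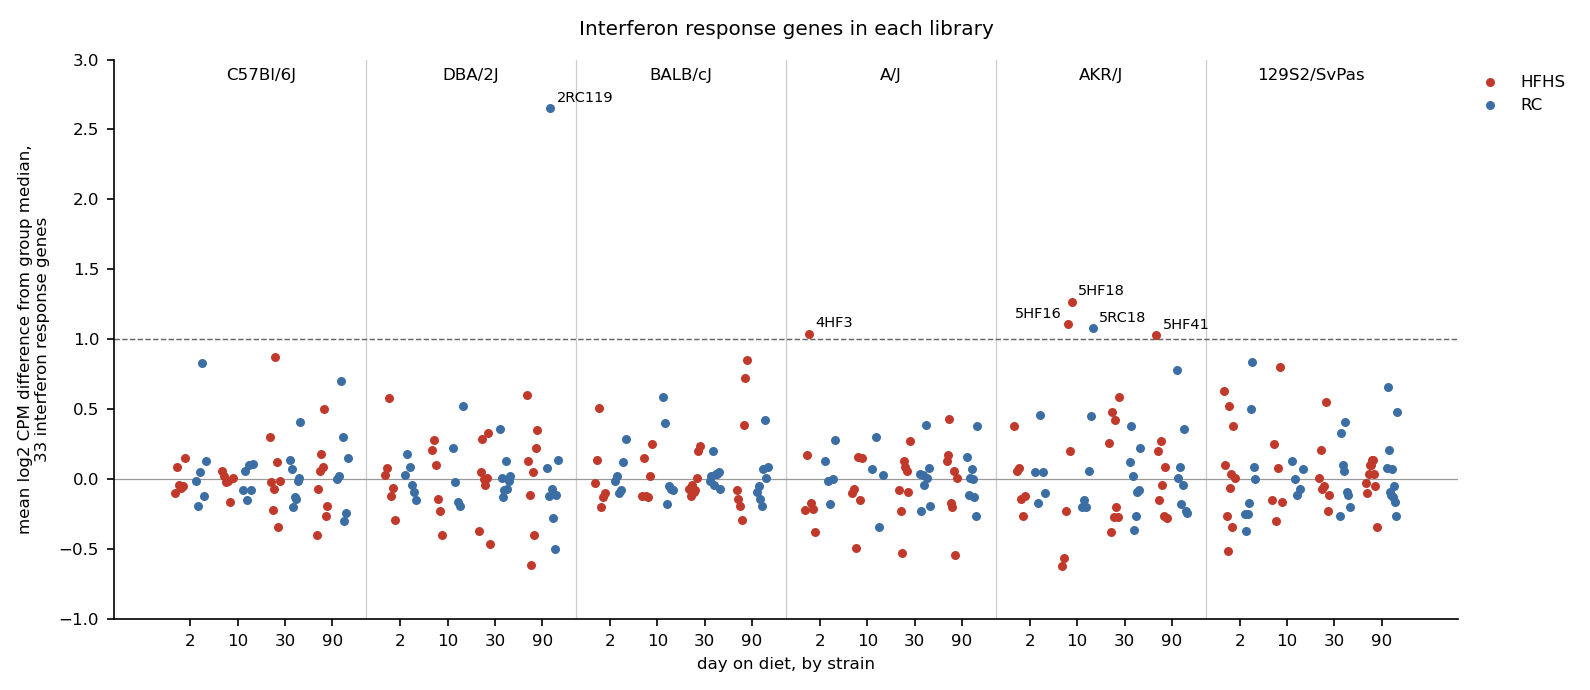
Mean over 33 interferon response genes of the log2 CPM difference from the group median (vertical axis), 1 point per library, with HFHS left of RC within each strain and day (horizontal axis). The dashed line marks 1. Mouse 2RC119 (DBA/2J, RC, day 90) lies at 2.65 and 5 further libraries lie between 1.03 and 1.27.

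In mouse 2RC119 every one of the 42 genes was above all the 7 other mice of its group, and 29 of the 33 interferon genes were at least 1 above the group median on the log2 scale. The mouse was picked on the mean of these 33 genes, so their high place follows in part from that choice. The share of all genes highest in this mouse is not given here. The chemokine gene Cxcl10, whose product draws activated T cells, had 41.1 CPM in 2RC119, against 0.52 to 0.924 CPM in the 7 other mice. Ifit3, an effector that acts with other IFIT proteins on viral RNA, had 125.3 CPM in 2RC119, against 3.2 to 5.16 CPM in the others. Oas2, which makes the oligoadenylates that activate RNase L, had 187.1 CPM in 2RC119, against 4.62 to 8.75 CPM in the others. None of these 3 genes overlapped between 2RC119 and its group. Irf7, the transcription factor that amplifies the interferon response, had 110.8 CPM in 2RC119, against 2.49 to 7.27 CPM in the others. Isg15, a ubiquitin-like modifier, had 16.1 CPM in 2RC119, against 0.451 to 2.41 CPM in the others. The log2 difference from the group median was 5.59 for Cxcl10, 4.80 for Ifit3, 4.74 for Oas2, 4.42 for Irf7 and 3.30 for Isg15.

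The MHC class I genes and some interferon genes stood less far above the group in the same mouse. B2m, the light chain shared by class I molecules, had 825.4 CPM in 2RC119, against 192.8 to 361.0 CPM in the 7 others. H2-K1, a class I heavy chain, had 245.0 CPM in 2RC119, against 70 to 130 CPM in the others. Their log2 differences from the group median were 1.48 and 1.38, while the other classical heavy chain H2-D1 had 0.96, Samhd1, which hydrolyses deoxynucleotides, had 0.55 and Trim25, a ubiquitin ligase of RNA sensing, had 0.37. Outside the 42 genes, 68 of 73 other interferon-stimulated genes with a count in the group were also highest in 2RC119, as were 10 of 21 other MHC class I genes. Among cell markers, 4 of 8 plasmacytoid dendritic, 1 of 14 islet endocrine and 1 of 10 stellate and fibroblast genes were highest there. It was 0 of 15 for acinar and 0 of 10 for endothelial markers. On a shorter list of 6 plasmacytoid dendritic markers, 2 were highest in 2RC119. Those 6 summed to 124.3 CPM there, within the range of the 7 others, whose median was 124.8 CPM.

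Ifnb1, the interferon beta gene, had a count in 12 libraries of the series, with 14 counts in 2RC119 and 1 or 2 in each of the others. Ifng, the interferon of T and NK cells, gave 4 counts in 2RC119, and across the series 100 libraries had a count, with at most 26. The 14 macrophage markers summed to 503.9 CPM in 2RC119, against 136.1 to 203.9 CPM in the 7 others, and 12 of the 14 were higher than in any of them. The 12 lymphocyte markers summed to 9.41 CPM in 2RC119, against 2.84 to 40.9 CPM in the others, with 0 of 12 above the group. No marker of either list was at 0 in this library. Its GC slope was -0.676, beyond the bound, and the mean over the interferon genes was 2.55 with GC curves removed. The part of macrophages in these levels was not tested.

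**Figure D2:**
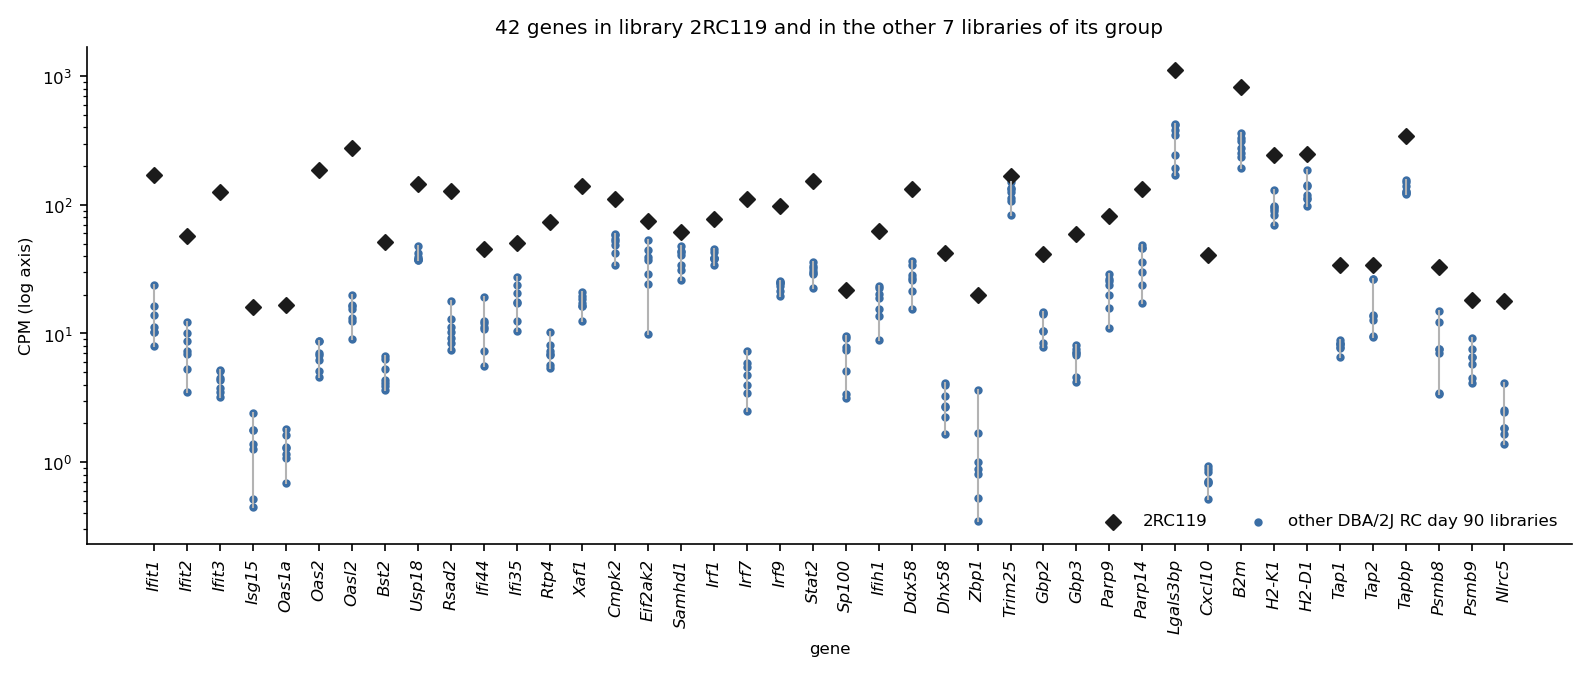
CPM of the 42 genes (log axis) in mouse 2RC119 and in the 7 other DBA/2J mice on RC at day 90, with a grey line over the range of those 7. Mouse 2RC119 lies above all 7 in every gene, with Cxcl10 at 41.1 CPM against 0.52 to 0.924 CPM and B2m at 825.4 CPM against 192.8 to 361.0 CPM.

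The 5 other high libraries differed among themselves. In mouse 5HF41 the log2 difference from the group median was 3.81 for Nlrc5, the activator of MHC class I genes, and 3.23 for Zbp1, a sensor of nucleic acid in the Z form, but 0.36 for Ifit1. Its 9 MHC class I genes averaged 1.56, above the 1.03 of its interferon genes, and the same order held in 5HF16 (1.43 and 1.11) and 5HF18 (1.39 and 1.27). In 5RC18 (0.98 and 1.08) and 4HF3 (0.97 and 1.04) the interferon mean was the higher one, as it was in 2RC119. The 12 lymphocyte markers summed to 209.0 CPM in 5HF41, against 1.63 to 35.5 CPM in the rest of its group, to 235.3 CPM in 4HF3, against 5.88 to 24.7 CPM, and to 128.9 CPM in 5HF16, against 4.34 to 34.8 CPM. All 12 lymphocyte markers were above the group in these 3 libraries, and 9 of 12 were in 5RC18 (35.5 CPM in all, against 5.19 to 20.5 CPM, with Klrb1c at 0). In 5HF18, which shares its group with 5HF16, the count had to be 0 of 12, since 5HF16 was highest in all 12. The lymphocyte sum of 5HF18 was 31.3 CPM, against 4.34 to 128.9 CPM with a median of 18.6 in the rest of its group. Mouse 5HF16 gave 21 Ifng counts. The 14 macrophage markers summed to 673.8 CPM in 5HF41, against 124.1 to 305.9 CPM in the rest of its group, with all 14 above the group. Above the group were 13 of 14 in 5HF16 (665.3 CPM in all, against 175.8 to 386.6 CPM), 10 in 4HF3 (461.9 CPM, against 108.8 to 252.4 CPM) and 9 in 5RC18 (409.1 CPM, against 256.9 to 326.3 CPM). It was 0 in 5HF18, which could not be above the group in the 13 led by 5HF16. The macrophage sum of 5HF18 was 386.6 CPM, against 175.8 to 665.3 CPM with a median of 284.1 in the rest of its group. Other markers were above the group as well. In 5HF18 these were 8 of 10 endothelial and 9 of 15 acinar markers, with Prss1 and Amy2a5 at 0, and 1 of 10 stellate and fibroblast markers. In 5HF41 they were 12 of 15 acinar markers, with Amy2a5 at 0, 7 of 10 stellate and fibroblast and 0 of 10 endothelial markers. The part of any of these cells in these levels was not tested.

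Between mice of a group the 42 genes varied to very different degrees. Over the libraries within the GC bound the within-group SD on the log2 scale was 1.13 for Cxcl10, 1.06 for Zbp1, 1.03 for Nlrc5 and 0.68 for Sp100, a nuclear body protein. It was 0.58 for Ifit3, 0.56 for Isg15 and Gbp2, a GTPase, and 0.55 for Irf7. The steadiest were Tapbp, the tapasin that loads peptide onto class I, at 0.16, Lgals3bp, a secreted glycoprotein, at 0.14, and Trim25 at 0.10. The list therefore holds genes in the top percentiles of spread among genes of 1 CPM or more (98.7 for Cxcl10) next to genes near the bottom (6.0 for Trim25). Levels differ too, with medians over all libraries of 0.461 CPM for Cxcl10, 0.668 for Zbp1 and 1.56 for Nlrc5. They were 104.6 CPM for Trim25, 172.0 for Tapbp and 489.5 for Lgals3bp. Counting error weighs more at low levels, and its part in this order was not tested.

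Isg15 moved with much of the list from mouse to mouse. After group means were removed, 16 of the 41 other genes correlated with Isg15 at a Pearson r of 0.5 or more over all libraries, and 26 of 41 did so over the 304 within the GC bound. Within the bound Irf7 was closest (r 0.792, rho 0.718), then Oasl2 (r 0.716, rho 0.65), an OAS-like protein of RNA sensing, and Rtp4 (r 0.703, rho 0.65), a receptor chaperone. Each of these 3 had a two-sided permutation p of 1.0e-05 for both coefficients, the smallest that 100000 permutations can give, and 1.1e-05 after Benjamini-Hochberg adjustment over the 41 relations. Without the 2 libraries farthest from the median of Isg15 the r values were 0.77 for Irf7, 0.695 for Oasl2 and 0.694 for Rtp4. Eif2ak2, the RNA-dependent kinase that halts translation, had r -0.057, and Trim25 had r 0.0265. Within single strains the number of genes at 0.5 or more was 15 in 129S2/SvPas, 19 in BALB/cJ, 20 in DBA/2J, 25 in C57Bl/6J, 27 in A/J and 36 in AKR/J. Without the 2 farthest libraries it was 3 in BALB/cJ, 6 in 129S2/SvPas and 14 in C57Bl/6J, so the count rests on those libraries there. All these libraries share gene lengths, annotation and a common scaling.

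**Figure D3:**
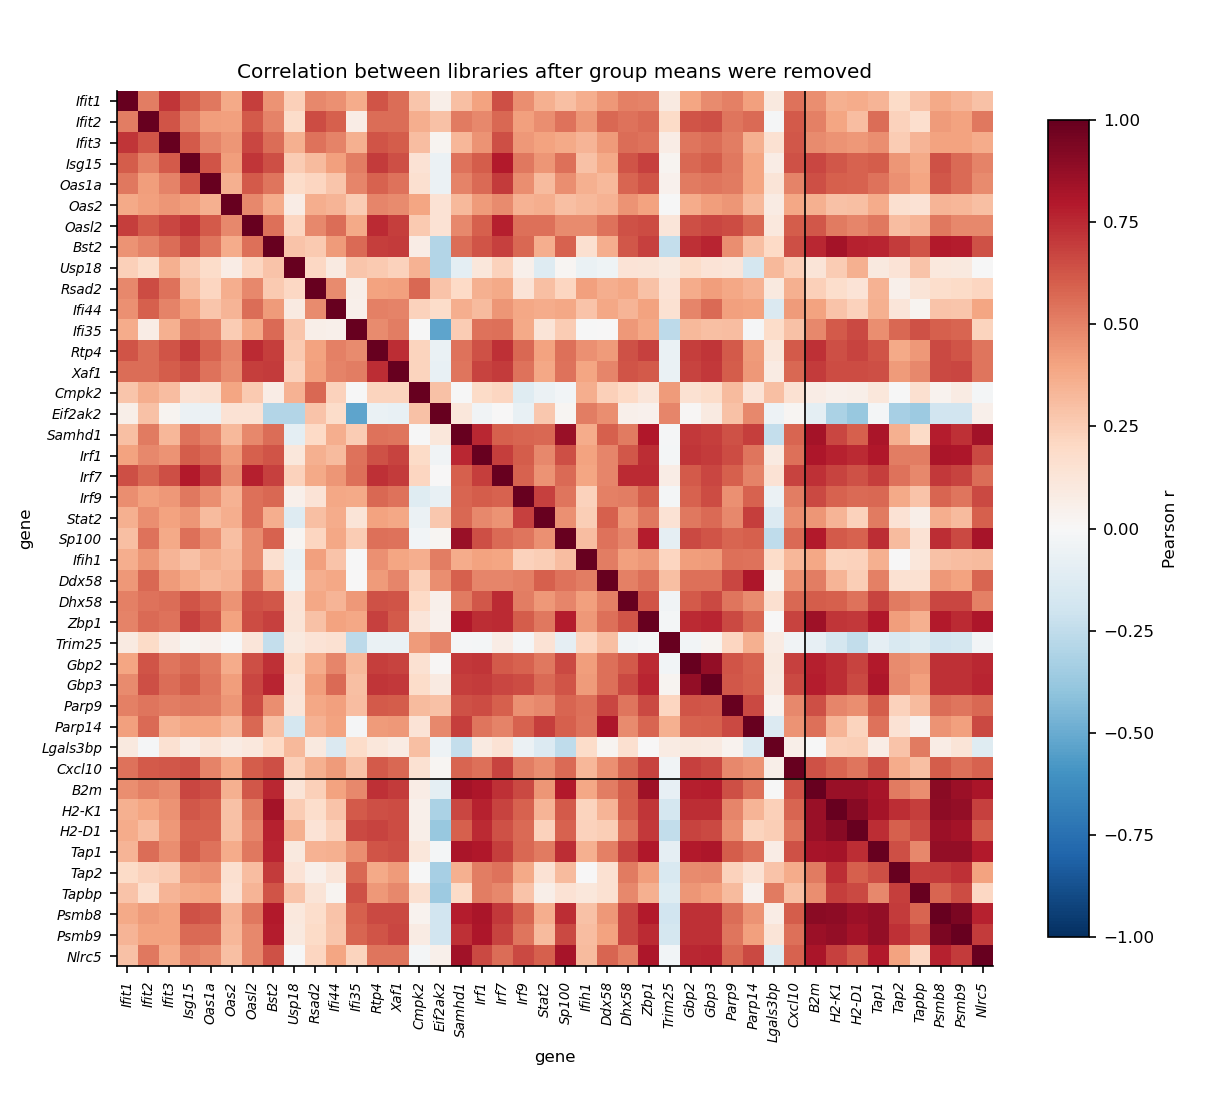
Pearson r between the 42 genes over the 304 libraries within the GC bound, after the mean of each strain, diet and day group was removed, with interferon genes before MHC class I genes on both axes. The MHC class I block has a median r of 0.737 over 36 pairs and the interferon block 0.435 over 528 pairs.

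The median r was 0.435 over the 528 pairs of interferon genes and 0.737 over the 36 pairs of MHC class I genes, within the bound. The summed lymphocyte markers reached r 0.5 or more with 12 of the 42 genes, with 6 over all libraries and with 6 in DBA/2J to 18 in BALB/cJ within single strains. They were led by Sp100 (r 0.813, rho 0.754), Nlrc5 (r 0.745, rho 0.695), Samhd1 (r 0.74, rho 0.69) and Psmb8 (r 0.723, rho 0.679), an immunoproteasome subunit. The summed macrophage markers did so with 18 of 42, with 19 over all libraries and with 7 in DBA/2J to 30 in AKR/J within single strains, led by Psmb8 (r 0.783, rho 0.722), Psmb9 (r 0.752, rho 0.688), its partner subunit, and B2m (r 0.744, rho 0.676). Each of these 7 relations had a permutation p of 1.0e-05 for both coefficients, the smallest possible, and adjusted values of 1.3e-05 to 1.5e-05 over the 42 relations of each list. Without the 2 farthest libraries r was 0.799 for Sp100 with the lymphocyte markers and 0.762 for Psmb8 with the macrophage markers. By contrast Rsad2, which makes an antiviral nucleotide, had r 0.0762 with the lymphocyte markers, Usp18, which strips Isg15 from proteins and dampens receptor signalling, had 0.012, Cmpk2, a mitochondrial nucleotide kinase, had -0.0544, and Lgals3bp had -0.222. Psmb8, Nlrc5 and Sp100 thus moved with the lymphocyte markers from mouse to mouse, while these 4 interferon genes had r values close to or below 0.

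The strains on RC differed in a handful of these genes, called at an adjusted p under 0.05 (edgeR quasi-likelihood test, Benjamini-Hochberg over 16498 genes, as for all adjusted p-values of levels below) and a log2 fold change whose size was 1 or more against the mean of the 5 other strains. All 42 genes passed the filter on low counts. The number called was 5 of 42 in BALB/cJ (2.82% of all genes), 3 in DBA/2J (4.67%), 2 in 129S2/SvPas (2.95%), 2 in AKR/J (3.55%), 1 in C57Bl/6J (3.12%) and 0 in A/J (3.11%). At the adjusted p alone it was 28 genes in BALB/cJ (44.7% of all genes), 28 in DBA/2J (59.8%), 25 in 129S2/SvPas (42.6%), 25 in AKR/J (58.3%), 17 in C57Bl/6J (44.5%) and 23 in A/J (49.3%). Since reads were mapped to a single reference, alleles of these strains and near-identical copies, such as the IFIT and OAS families and the class I heavy chains, may be counted unequally, which was not tested.

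Rsad2 was high in C57Bl/6J, where the 27 RC mice had 9.85 to 30.1 CPM with a median of 21.2. The medians of the other strains were 10.1 CPM in 129S2/SvPas, 8.47 in DBA/2J, 7.62 in A/J, 4.38 in BALB/cJ and 5.3 in AKR/J. Single mice of DBA/2J (2RC119, 128.7 CPM) and 129S2/SvPas (41.8 CPM) passed the C57Bl/6J range, so the ranges overlap. The log2 fold change was 1.42 (SE 0.0991, adjusted p = 1.04e-33) in C57Bl/6J and -1.13 (SE 0.119, adjusted p = 2.05e-17) in BALB/cJ. Neighbours in the order from 129S2/SvPas to A/J had overlapping ranges.

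Xaf1, a partner of the apoptosis inhibitor XIAP, was highest in DBA/2J, at 10.3 to 140.9 CPM with a median of 13.3 over 27 mice. It was lowest in BALB/cJ, at 1.26 to 3.54 CPM with a median of 2.17 over 28 mice, so DBA/2J and BALB/cJ did not overlap. The 129S2/SvPas mice had 2.23 to 12.2 CPM with a median of 8.5, and C57Bl/6J, A/J and AKR/J had medians of 3.18, 3.8 and 3.06 CPM. The log2 fold change was 1.99 in DBA/2J (SE 0.0922, adjusted p = 2.54e-60) and 1.78 to 2.03 when single libraries were left out, and it was -1.31 in BALB/cJ (SE 0.116, adjusted p = 3.69e-23). Ifit3 was likewise highest in DBA/2J and lowest in BALB/cJ, with medians of 2.76 CPM in DBA/2J (1.36 to 125.3), 2.26 in AKR/J, 1.88 in C57Bl/6J, 1.14 in 129S2/SvPas, 0.881 in A/J and 0.513 in BALB/cJ (0.314 to 1.14). DBA/2J lay above all BALB/cJ mice in Ifit3 as well. Its log2 fold change was 1.56 in DBA/2J (SE 0.142, adjusted p = 2.65e-22), between 1.04 and 1.60 with single libraries left out, and -1.73 in BALB/cJ (SE 0.179, adjusted p = 5.73e-18). Cxcl10 was also lower in BALB/cJ, at a log2 fold change of -1.52 (SE 0.305, adjusted p = 7.43e-06).

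The strains carry different forms of the MHC, known as haplotypes: DBA/2J and BALB/cJ share the d form, C57Bl/6J and 129S2/SvPas the b form, AKR/J has the k form and A/J a recombinant. H2-K1 was lowest in the strains of the d form, at 70 to 245.0 CPM with a median of 97.6 in DBA/2J and at 79.5 to 188.0 CPM with a median of 108.2 in BALB/cJ. The other strains had medians of 221.6 CPM in AKR/J, 253.3 in A/J, 281.5 in 129S2/SvPas and 327.5 in C57Bl/6J. DBA/2J and BALB/cJ overlapped each other, and their upper ends reached into the ranges of the other strains. The log2 fold change was -1.18 in DBA/2J (SE 0.0917, adjusted p = 1.67e-28) and -1.06 in BALB/cJ (SE 0.0884, adjusted p = 1.78e-25). H2-D1 was lowest in AKR/J, at 40.8 to 79 CPM with a median of 50.4, and its medians were 70.9 CPM in 129S2/SvPas, 82.1 in C57Bl/6J, 109.3 in BALB/cJ, 120.2 in DBA/2J and 151.4 in A/J. The AKR/J range overlapped those of C57Bl/6J and 129S2/SvPas. The log2 fold change of H2-D1 in AKR/J was -1.0 (SE 0.0833, adjusted p = 1.2e-25), so close to the limit of 1 that 49 single libraries left out ended the call.

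In A/J, 0 genes reached a fold change of 1 on the log2 scale although 23 passed the adjusted p and 24 an unadjusted p under 0.05 (edgeR), with 0 also called by DESeq2. Of the 9 MHC class I genes, H2-D1 (0.95), Psmb9 (0.96) and Psmb8 (0.98) came closest, and the median over the 9 was 0.59, against 0.03 over all genes. Without mouse 4RC14, 2 genes were called in A/J. Markers of some other cells are given beside these levels, though not every list in every strain. Their median log2 fold change in A/J was 0.72 for the 14 macrophage markers (1 called higher), 0.69 for the 12 lymphocyte markers (1 called higher) and 0.94 for the 10 stellate and fibroblast markers (4 called higher). Those medians were -0.54, -0.37 and -0.25 in BALB/cJ (0 called by edgeR, with 11, 0 and 5 at an unadjusted p under 0.05, and 0 by DESeq2) and -0.46, -0.77 and -0.53 in DBA/2J (1, 1 and 2 called lower). Acinar markers had a median of 1.09 in 129S2/SvPas (9 of 15 called higher) and of -0.94 in DBA/2J (4 of 15 called lower). In no other strain was an acinar marker called by edgeR. In AKR/J the stellate and fibroblast markers had a median of 0.90 (3 of 10 called higher). The part of these cells in the strain differences was not tested. Gbp2 was higher in AKR/J at a log2 fold change of 1.01 (adjusted p = 1.19e-14), a call lost without any of 6 AKR/J mice (5RC17, 5RC18, 5RC26, 5RC3, 5RC32 or 5RC41). In 129S2/SvPas Isg15 was lower at -1.12 (SE 0.165, adjusted p = 7.59e-10; -0.99 within the GC bound) and Oasl2 at -1.01 (SE 0.126, adjusted p = 3.66e-13; -0.97 with the GC offset), which put each just short of the limit there. Leaving out any of 9 single libraries ended the Oasl2 call. Ifih1, the sensor of long viral RNA, had medians of 29.7 CPM in 129S2/SvPas and 29.5 in C57Bl/6J, and of 11.6 to 19.3 CPM in the 4 other strains.

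**Figure D4:**
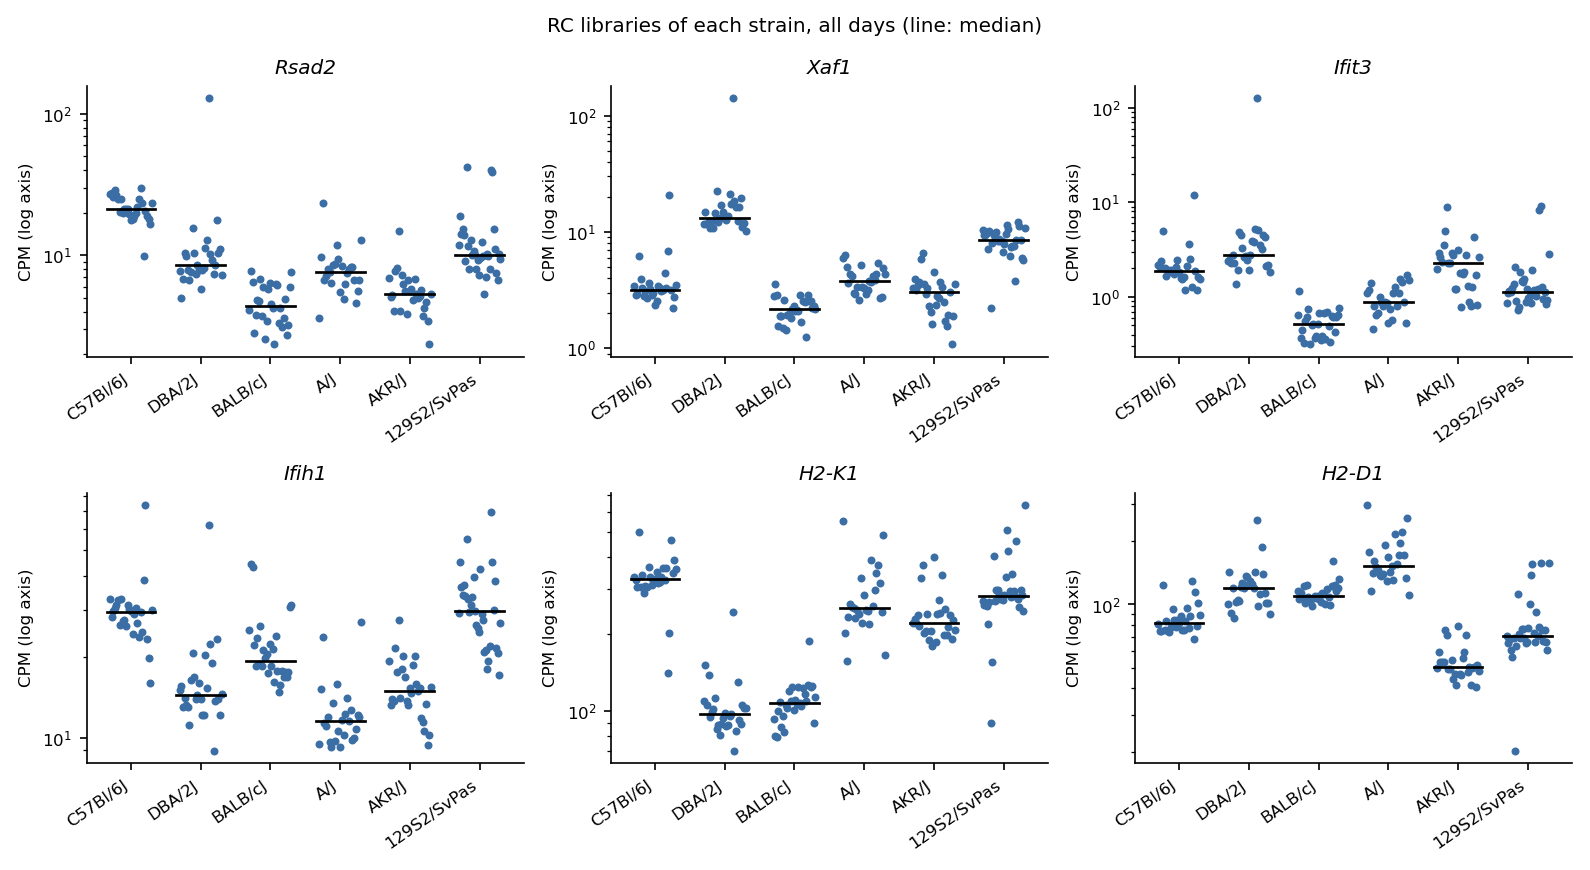
CPM (log axis) of selected genes in every RC mouse of the 6 strains over all days, 1 point per library, with the median as a line. Rsad2 has its highest median in C57Bl/6J (21.2 CPM), Xaf1 in DBA/2J (13.3 CPM), and H2-K1 has its lowest medians in DBA/2J (97.6 CPM) and BALB/cJ (108.2 CPM).

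The diet was compared at each day as the mean over the 6 strains of HFHS minus RC. At day 2, 10 of the 42 genes were called, 3 higher and 7 lower (41% of all genes called, 18.5% higher and 22.5% lower), and 1 of the 10, Oas2, was called with both GC corrections. Without C57Bl/6J mouse 1RC114 the count was 6. At day 10 it was 1 gene (0.946%), at day 30 it was 2, both higher (9.93%, 4.40% higher), and at day 90 it was 3, all lower (16.6%, 6.79% lower). The median log2 fold change over the 42 genes was -0.13 at day 2, 0.10 at day 10, 0.09 at day 30 and -0.06 at day 90, against -0.01, 0.00, -0.01 and 0.01 over all genes. The shares of the 42 genes called were 23.8%, 2.38%, 4.76% and 7.14%. The count at day 30 depended on the libraries used, with 5 genes called under the GC offset (11% of all genes) and 13 within the GC bound (40.3% of all genes). BALB/cJ had no HFHS library within the bound at day 2. Comparisons of the diets at day 2 within the bound therefore leave this strain out.

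Oas2 was lower on HFHS at day 2. In A/J the 6 HFHS mice had 0.532 to 4.07 CPM with a median of 1.17, and the 5 RC mice had 4.22, 4.54, 5.63, 5.89 and 9.85 CPM. In C57Bl/6J the 6 HFHS mice had 3.13 to 3.94 CPM with a median of 3.53, and the 6 RC mice had 5.06 to 8.42 CPM with a median of 7.1. The diets did not overlap in either strain. In AKR/J the 6 HFHS mice had 3.18 to 5.42 CPM with a median of 4.32, and the 5 RC mice had 4.6, 7.13, 7.38, 7.61 and 8.21 CPM. In the other strains the HFHS and RC medians were 5.01 and 5.35 CPM in DBA/2J, 1.88 and 3.67 CPM in BALB/cJ and 2.76 and 3.8 CPM in 129S2/SvPas. The median was lower on HFHS in 6 of 6 strains, and in AKR/J and those 3 strains the ranges overlapped. The mean log2 fold change was -0.78 (SE 0.125, adjusted p = 4.71e-07) and -0.79 with the GC offset. It was -0.83 within the GC bound, without BALB/cJ, and -0.85 to -0.75 when single libraries were left out.

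The strain by diet test at day 2 called 27 of the 42 genes (72.3% of all genes), among them Oas2 (adjusted p = 0.0021). With both GC corrections 6 remained, Oas2, Cmpk2, Sp100, Ddx58, Parp9 and Nlrc5. Within A/J the Oas2 log2 fold change was -2.01 (SE 0.331, adjusted p = 5.13e-07), and it was the single gene of 9 called there (31.7% of all genes) that both corrections kept. The 9 became 3 without mouse 4RC1 and 14 without 4HF3, the library high in interferon genes. It was -0.89 in C57Bl/6J (adjusted p = 0.575), -0.63 in BALB/cJ (adjusted p = 0.0655), -0.54 in AKR/J, -0.42 in 129S2/SvPas and -0.17 in DBA/2J. The 14 macrophage markers in A/J at day 2 summed to 108.8 to 461.9 CPM on HFHS, against 335.8 to 993.0 CPM on RC, and their part in the Oas2 level was not tested. Within BALB/cJ 27 genes were called at day 2 (66.6% of all genes), where no HFHS library lay within the GC bound, and within 129S2/SvPas 7 were called, all lower (20.6%, 15.3% lower), of which none was called once libraries closer to another strain were left out and 1 without mouse 6RC6.

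The other day 2 calls did not outlast the GC corrections. Bst2, which tethers budding virions, had a log2 fold change of -0.39 (adjusted p = 0.0225), and Stat2, a transcription factor of the interferon response, had -0.13 (adjusted p = 0.0454). Ddx58, the RIG-I sensor of viral RNA, had 0.21 (adjusted p = 0.00695), Eif2ak2 had 0.23 (adjusted p = 0.015) and Trim25 had 0.07 (adjusted p = 0.0384; -0.01 on the authors' normalized values). Of the MHC class I genes, the peptide transporter genes Tap1 and Tap2 had -0.43 (adjusted p = 0.00505) and -0.50 (adjusted p = 0.00369), and the immunoproteasome genes Psmb8 and Psmb9 had -0.41 (adjusted p = 0.0319) and -0.35 (adjusted p = 0.0293). Within the GC bound, where BALB/cJ drops out, these 4 were at -0.15, -0.09, 0.03 and 0.00 and none was called. For Tap2 the 6 BALB/cJ mice on HFHS, all beyond the bound, had 3.9 to 15.8 CPM, and the 6 on RC had 32.2 to 49.3 CPM, without overlap, whereas in DBA/2J the medians were 43.2 CPM on HFHS and 43.4 CPM on RC. Macrophage markers moved alongside, with 12 of 14 called lower and none higher, a median log2 fold change of -0.50, and sums of 108.8 to 461.9 CPM on HFHS, against 126.3 to 993.0 CPM on RC. Lower calls without a higher one were also found in 6 of 10 endothelial, 5 of 10 stellate and fibroblast, 5 of 15 acinar, 3 of 8 plasmacytoid dendritic and 2 of 12 lymphocyte markers, while 6 of 14 islet endocrine markers were lower and 1 was higher. These marker counts come from the fit without a GC correction, in which 18.5% of all genes were called higher and 22.5% lower. Counts of markers called with the GC corrections are not given here. The part of any of these cell types was not tested.

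At day 30 Irf7 and Bst2 were called higher on HFHS in the mean over strains, and the medians of the diets lay farthest apart in DBA/2J. Irf7 had 6.82 to 17.1 CPM with a median of 12.8 in the 8 DBA/2J mice on HFHS, against 3.61 to 8.32 CPM with a median of 5.23 in the 8 on RC. Bst2 had 7.69 to 14.8 CPM with a median of 10.5 in DBA/2J on HFHS, against 3.37 to 5.74 CPM with a median of 4.46 on RC. The diets overlapped for Irf7 and did not for Bst2. Elsewhere the HFHS and RC medians of Irf7 were 7.03 and 6.08 CPM in AKR/J, 6.8 and 4.96 in C57Bl/6J, 6.54 and 4.99 in BALB/cJ, 5.09 and 4.92 in A/J and 4.62 and 4.04 in 129S2/SvPas. Those of Bst2 were 12.9 and 11.6 CPM in A/J, 11.4 and 9.16 in AKR/J, 10.3 and 8.09 in C57Bl/6J, 8.56 and 6.55 in BALB/cJ and 6.52 and 6.86 in 129S2/SvPas. The Irf7 median was higher on HFHS in 6 of 6 strains and the Bst2 median in 5 of 6, with overlapping ranges outside DBA/2J. Single HFHS mice reached 22.8 CPM (1HF151, C57Bl/6J) and 26.3 CPM (6HF30, 129S2/SvPas) in Irf7.

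The mean log2 fold change at day 30 was 0.67 for Irf7 (SE 0.148, adjusted p = 0.000773), 0.63 with the GC offset and 0.54 to 0.70 with single libraries left out. For Bst2 it was 0.40 (SE 0.126, adjusted p = 0.0247), 0.37 with the offset and 0.38 to 0.43 with single libraries left out. The strain by diet test at day 30 called 0 of the 42 genes (6.25% of all genes, edgeR, with 2 of the 42 at an unadjusted p under 0.05), and DESeq2 was not run for it. Within DBA/2J at day 30, 5 of 42 genes were called, all higher (25.8% of all genes, 13.1% higher). These were Bst2 at 1.29 (adjusted p = 0.00107), Irf7 at 1.21 (adjusted p = 0.00929), Tap2 at 1.03 (adjusted p = 0.00907), H2-K1 at 0.59 (adjusted p = 0.0177) and Tapbp at 0.51 (adjusted p = 0.00279), the last at 0.15 and not called with the GC offset. The 8 HFHS mice lay above the 8 RC mice without overlap in H2-K1 (112.7 to 143.7 CPM on HFHS, 81.1 to 98.1 CPM on RC), Tap2 (45.4 to 54.9 and 19 to 35.3 CPM) and Tapbp (175.0 to 193.5 and 129.6 to 146.2 CPM). Macrophage markers in these mice summed to 128.6 to 266.3 CPM on HFHS and 144.5 to 208.6 CPM on RC, and over all strains 0 of 14 were higher and 1 was lower at day 30. Also lower over all strains were 6 of 10 stellate and fibroblast markers (median log2 fold change -0.41) and 1 of 15 acinar markers. Higher were 1 of 8 plasmacytoid dendritic and 1 of 14 islet endocrine markers, and no lymphocyte or endothelial marker was called. The part of any of these cells in the day 30 levels was not tested.

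**Figure D5:**
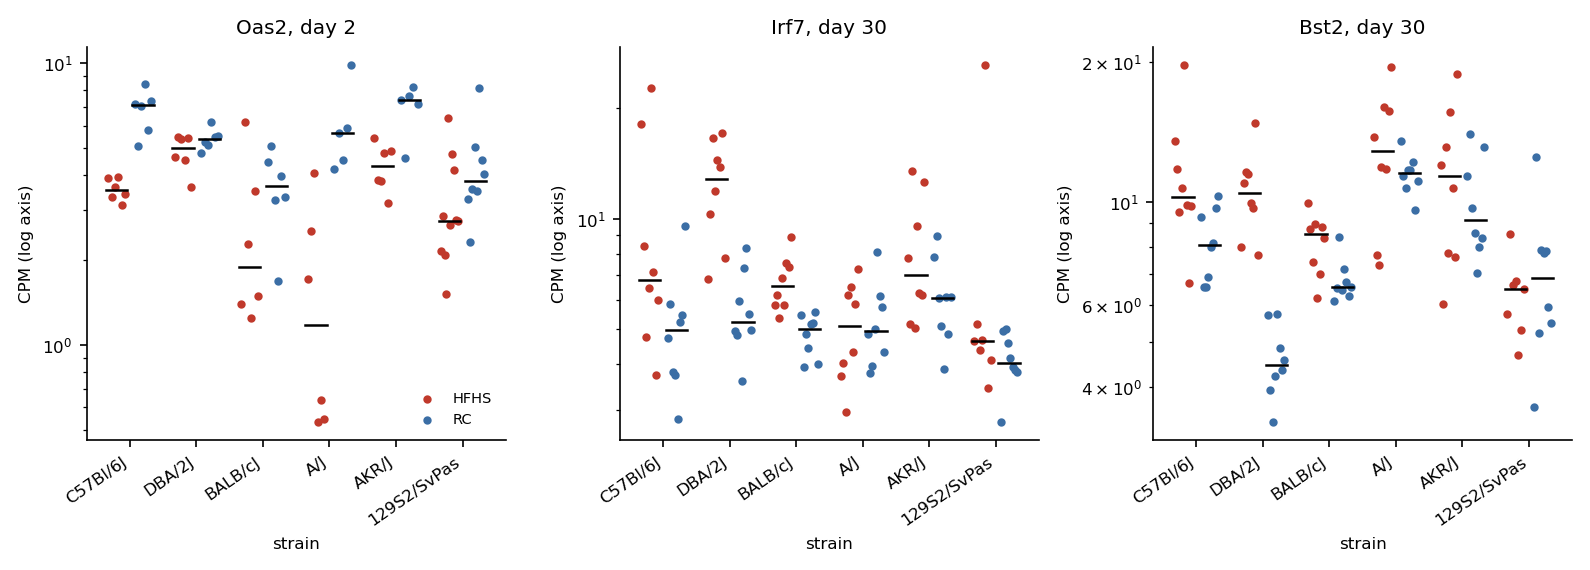
CPM (log axis) of Oas2 at day 2, and of Irf7 and Bst2 at day 30, in every library by strain, with HFHS left of RC and the group median as a line. The Oas2 median is lower on HFHS in all 6 strains, and in DBA/2J the Bst2 values are 7.69 to 14.8 CPM on HFHS, against 3.37 to 5.74 CPM on RC.

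At day 10, Trim25 was the gene called, at a log2 fold change of 0.12 (SE 0.0285, adjusted p = 0.00831), 0.16 with the GC offset and 0.13 within the bound. The strain by diet test at day 10 called 0 of 42 (8.73% of all genes, edgeR, with 0 at an unadjusted p under 0.05, DESeq2 not run). The diet effect differed between the 4 days in 11 of 42 genes (47.9% of all genes), and 4 of these remained with both GC corrections. They were Trim25 (adjusted p = 3.37e-05), Tap2 (adjusted p = 0.00182), Bst2 (adjusted p = 0.0035) and Oas2 (adjusted p = 0.00441). Without a GC correction Bst2 had -0.39 at day 2 and 0.40 at day 30, and Tap2 had -0.50 at day 2. Neither day 2 call was kept by both GC corrections.

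Of the 3 genes called at day 90, Oas2 and Ifit1 lost their call without mouse 2RC119. Oas2 had a mean log2 fold change of -0.55 at day 90 (SE 0.109, adjusted p = 0.000103), -0.21 without 2RC119, and -0.27 within the GC bound (adjusted p = 0.0134). Ifit1 had -0.48 (adjusted p = 0.00289), -0.08 within the bound, -0.27 without 2RC119, and it lost its call also without C57Bl/6J mouse 1RC134, which had 60.4 CPM in a group with a median of 5.66 CPM. Trim25 had -0.07 (adjusted p = 0.0188), and 0.00 with the GC offset. Without 2RC119, left out after seeing the data, Irf7 (0.43), Bst2 (0.32) and Lgals3bp (0.26) were called higher on HFHS and Trim25 (-0.07) lower. Within DBA/2J these 4 had 1.56, 1.41, 1.05 and -0.32 without 2RC119. These values carry no GC correction, and no share of all genes goes with the 4 calls.

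Within DBA/2J at day 90 the direction itself depended on that mouse. With all 8 mice of each diet 24 of 42 genes were called, 4 higher and 20 lower on HFHS (55.4% of all genes, 26.1% higher and 29.3% lower). Without 2RC119 20 genes were called, 14 higher and 6 lower, of which 11 were among the 24. Single libraries were left out for the 42 genes alone, so no share of all genes goes with these 20. The 14 included Cxcl10 (1.64), Tap2 (1.49), Bst2 (1.41), Psmb8 (1.05) and Isg15 (0.90), and the 6 were Eif2ak2 (-0.65), Ifi44 (-0.57), Ifih1 (-0.52), Parp14 (-0.44), Parp9 (-0.33) and Trim25 (-0.32). Irf7 had 5.93 to 24.8 CPM with a median of 9.08 on HFHS, and 2.49 to 7.27 CPM in the 7 RC mice other than 2RC119 at 110.8 CPM. Its log2 fold change was -0.25 with 2RC119, not called, and 1.56 without it. Oas2 had 3.13 to 9.04 CPM on HFHS, and 4.62 to 8.75 CPM in the same 7 RC mice, a log2 fold change of -2.0 (adjusted p = 4.22e-10) with 2RC119 and of 0.02 without it. Of the RC mice of this group, 6 of 8 were beyond the GC bound. Tap2 at 1.33 (SE 0.31, adjusted p = 0.000132) and Lgals3bp at 0.69 (SE 0.222, adjusted p = 0.00491) were called higher with both GC corrections and without any single mouse. Tap2 had 8.71 to 53.3 CPM with a median of 41 on HFHS, against 9.34 to 34.3 CPM with a median of 13.7 on RC, so that the ranges overlapped while the medians lay apart.

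The strain by diet test at day 90 called 28 of 42 genes (50.3% of all genes), 12 of them with both GC corrections. These were Ifit3, Usp18, Rsad2, Rtp4, Eif2ak2, Sp100, Dhx58, Parp14, H2-K1, H2-D1, Tap1 and Tap2. Without 2RC119, 16 of the 28 were still called. In AKR/J at day 90 Usp18 was the gene called (12.4% of all genes), at a log2 fold change of 0.46 (SE 0.117, adjusted p = 0.00207). It had 25.6 to 44.4 CPM with a median of 29.9 on HFHS and 25.4 to 31.4 CPM with a median of 27.6 on RC. The ranges overlapped, and the CPM medians lay closer together than that fold change. The fit scales by TMM and CPM does not, and the part of scaling was not tested. In BALB/cJ at day 90, 2 genes were called (2.71%), Sp100 at 1.52 (adjusted p = 0.0139) and Samhd1 at 0.61 (adjusted p = 0.0325). Both calls were lost without mouse 3HF46 or 3HF47, and that of Samhd1 also without 3RC42. Sp100 had 2.08 to 40 CPM with a median of 3.19 in the 7 HFHS mice, and 2.22 to 9.62 CPM with a median of 4.03 in the 8 RC mice. In C57Bl/6J no gene of the 42 was called at any of the 4 days by edgeR or DESeq2, with 4, 0, 7 and 0 at an unadjusted p under 0.05 and 0.145%, 0.0182%, 1.62% and 0.218% of all genes called at days 2, 10, 30 and 90.

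On RC, day 90 minus day 2 over the 6 strains called 3 of 42 genes, 2 higher and 1 lower (23.2% of all genes). Ifih1 was lower at day 90, at -0.31 (adjusted p = 0.00023), with medians at day 90 and day 2 of 24.8 and 30.9 CPM in C57Bl/6J, 17.2 and 25.6 in BALB/cJ, 21.2 and 40.5 in 129S2/SvPas, 11.7 and 15.5 in AKR/J, 11.8 and 12 in A/J and 19.7 and 14.3 in DBA/2J. The DBA/2J median went the other way. Trim25 was higher at day 90 at 0.11 (adjusted p = 0.00026), a call lost with the GC offset (0.06, adjusted p = 0.101), and Ifit1 was higher at 0.48 (adjusted p = 0.00299), a call lost without 1RC134 or 2RC119. Without 2RC119, 5 genes were called, Trim25 higher and 4 lower, as Rsad2 (-0.48), Rtp4 (-0.27) and Cmpk2 (-0.17) joined Ifih1 (-0.37). No share of all genes goes with these 5.

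Other genes of the pathway were followed on lists apart from the 42, against the shares of all genes called for diet, 41% at day 2, 0.946% at day 10, 9.93% at day 30 and 16.6% at day 90. Of 14 listed interferon and interferon receptor genes 7 passed the filter, and 0 of the 7 were called for diet at any day by edgeR or DESeq2, with an unadjusted p under 0.05 (edgeR) in 0 at days 2, 10 and 30 and in 1 at day 90. Of 10 JAK-STAT genes, 3 were higher and 4 lower at day 2, 1 was higher and 1 lower at day 30, and 1 was lower at day 90. Socs1, the feedback inhibitor of JAK kinases, had a log2 fold change of -0.68 at day 2 (adjusted p = 0.000439). Its change at day 30 was 0.45 (adjusted p = 0.0203), and both were kept by the GC corrections. Of the 7 called at day 2, Pias1 (0.16), Jak1 (0.15) and Jak2 (0.20) were not called with either GC correction. Of 12 nucleic acid sensing genes 1 was higher and 3 lower at day 2, 1 was higher at day 90, and Irf3, the factor that starts interferon transcription, was higher at day 30 (0.29, adjusted p = 0.00426).

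Of 73 other interferon-stimulated genes 1 was higher and 10 were lower at day 2, led by the antiviral GTPase gene Mx1 at -0.69 (adjusted p = 4.78e-05; -0.63 within the GC bound). At day 30, 2 of the 73 were higher, Oasl1 at 0.55 (adjusted p = 0.0326) and I830012O16Rik at 0.38 (adjusted p = 0.0484), and at day 90 it was 1 higher and 3 lower. Of 21 other MHC class I genes 5 were higher and 4 lower at day 2, among them H2-M2 at -0.98 (adjusted p = 0.000175), H2-Q10 at -0.66 (adjusted p = 0.00326) and H2-Q4 at -0.41 (adjusted p = 0.00131). None of these 3 was called within the GC bound, while Erap1, the peptidase that trims class I peptides, was higher at 0.27 (adjusted p = 0.00109) and kept by both corrections. At day 30, 3 of the 21 were higher, H2-Q1 at 0.91 (adjusted p = 0.00551), H2-Q4 at 0.37 (adjusted p = 0.0037) and H2-Q10 at 0.47 (adjusted p = 0.0372), and 1 was lower, Mr1, which presents vitamin B metabolites to T cells, at -0.24 (adjusted p = 0.00255). At day 90, H2-Q4 (0.29, adjusted p = 0.0158) and the immunoproteasome gene Psmb10 (0.44, adjusted p = 0.0332) were higher and Mr1 (-0.18, adjusted p = 0.0179) was lower, a call lost with the GC offset (-0.05). These class I genes resemble each other in sequence, so how reads were divided between them was not tested. At day 10 no gene of these lists was called by edgeR or DESeq2, with 2 of the interferon-stimulated and 2 of the MHC class I genes at an unadjusted p under 0.05.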

How the data were processed

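RNA was measured in islets of 172 mice on HFHS and 166 on RC, with an Illumina TruSeq kit that does not mark strand, per the labels' protocols. The authors deposited raw read counts of 21382 genes, made with TopHat 1.3.3, SAMtools 0.1.16 and HTSeq 0.5.3p3 on mm9, per the submitters' processing notes, which also name edgeR. The authors also deposited normalized log2 values of 14826 genes, which equal log2 of the count times a factor per library (0.428 to 2.942) plus 1 and were used as an alternative.

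Groups came from the strain, diet and time labels. Deposited counts were fitted with edgeR 4.0.16 (quasi-likelihood, robust, TMM, prior count 2, R 4.3.3) with 1 mean per group over 16498 genes past filterByExpr, and p-values were adjusted by Benjamini-Hochberg over all of them. The threshold was an adjusted p of 0.05 and, between strains, also a log2 fold change of 1. CPM values are deposited counts scaled to a common total per library. The GC slope is that of a library's log2 CPM deviation from the median library on gene GC content. With single libraries left out, a gene was called at the largest p called in the full fit. Alternatives were DESeq2 1.42.0, limma 3.58.1 on the authors' log2 table, GC curves as an offset, libraries within the GC bound, libraries closer to another strain left out, no filter, and mouse numbers as a block. The code recovered changes put into simulated counts. The closest 2 libraries of a group had a chi-square of 4.31 per degree of freedom over 1069 pairs, so none was counted as a repeat.

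The genes and lists were chosen with earlier results of these data known. All 42 genes could be named, those kept by both GC corrections first, and up to 4 called genes of smallest p from each other list. Promoter sequences are from RefSeq, GRCm38.p6, a build other than that of the counts.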

Additional observations from a re-analysis of the deposited data

Results flagged for a closer look

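A sample far from the others of its group, by Dixon's test in groups of 4 to 10 mice, was found for 13 of 94 group means, where chance gives about 1 in 20. For the mean over the 33 interferon genes these were mouse 2RC119 (2.65), 5HF41 (1.03), 1RC114 (0.83), 3RC46 (0.42), 3RC27 (0.20) and, on the low side, 6HF99 (-0.34). For the mean over the 9 MHC class I genes they were 2RC119 (1.68), 5HF41 (1.56), 5RC41 (1.02), 3RC46 (0.93), 3RC6 (0.55), 2RC101 (0.53) and, on the low side, 6RC2 (-2.15). The values are log2 differences from the group median.

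The diet effect differed between strains in 27 of the 42 genes at day 2 (72.3% of all genes) and in 28 at day 90 (50.3%), and between days in 11 (47.9%), each by an edgeR interaction test at an adjusted p under 0.05.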

How the results depend on the processing

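The strain calls and the day 2 Oas2 and day 30 Irf7 differences kept their direction in every alternative run, while counts of called genes moved. Of the 42 genes, the diet effect at day 2 called 4 within the GC bound, where BALB/cJ drops out, and 3 with mouse numbers as a block, against 10. At day 10 it called 0 on the authors' table and 0 with the block, against 1. At day 30 it called 5 with the GC offset, 13 within the bound, 4 with DESeq2 size factors, 4 by DESeq2, 1 on the authors' table and 1 with the block, against 2. At day 90 it called 1 on the authors' table and 0 with the block, against 3. The strain by diet test called 14 with the offset and 7 within the bound at day 2, against 27, 6 within the bound at day 30, against 0, and 9 on the authors' table and 0 with the block at day 90, against 28. The diet by day test called 6 within the bound and 2 with the block, against 11. Between strains the block gave 5 in DBA/2J, 4 in A/J, 2 in C57Bl/6J, 1 in AKR/J and 1 in BALB/cJ, the authors' table gave 1 in AKR/J and the offset 1 in 129S2/SvPas. The change from day 2 to day 90 on RC gave 8 within the bound, against 3, and the 24 within-strain comparisons gave 39 calls with the block, against 75. Mouse numbers did not pair the mice, since the deviations of 42 same-numbered pairs correlated above 0.1 and those of the other pairs did not, with r from -0.938 to 0.693, so these values describe a shared number only.

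Signs turned for Psmb8 (0.03) and Psmb9 (0.00) at day 2 and Ifit3 in DBA/2J at day 90 (0.28) within the bound, for Trim25 at day 2 on the authors' table (-0.01) and for Trim25 at day 90 with the offset (0.00). High libraries numbered 2 with TMM and 2 with GC curves removed, against 6. Genes correlated with Isg15 numbered 26 within the bound, 15 over all libraries without 2RC119 (chosen after seeing the data), 25 within C57Bl/6J (14 without its 2 farthest libraries), 27 within A/J and 36 within AKR/J, against 16. With 1 mouse of the smallest groups left out in turn, or the set of libraries closer to another strain, the counts ran from 6 to 14 at day 2, 2 to 5 at day 30, 3 to 6 at day 90, 10 to 17 for diet by day, 0 to 2 in A/J, 1 to 2 in AKR/J, 1 to 3 in 129S2/SvPas and 3 to 7 for day 90 against day 2. The cause of these changes was not tested. DESeq2 was not run for the interactions. Depth limits Cxcl10, Zbp1, Nlrc5, Ifit3 and Isg15, whose levels lie near 1 CPM in many libraries.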
